A study of Mus musculus with 9 samples.

Results

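This account covers 9 mouse liver genes that depend on growth hormone and its signal transducer STAT5, out of 22180 genes measured with a probe set of their own. The members are Cyp2d9, Mup20, Mup21 and Susd4, genes whose level in liver follows the sex-specific pattern of growth hormone release, and Socs2, Cish, Igf1, Igfals and Bcl6, which STAT5 binds and regulates directly. They were chosen by name, 1 probe set per gene with the highest mean over 9 arrays, and all 9 were found. The question attached to them is whether Cyp2d9, Mup21 and Susd4 move with the direct STAT5 targets. Cyp2d9, Mup21 and Susd4 were picked because earlier results of these arrays showed them low in double KO livers, and Mup20 was picked beside them. Their values in the comparisons that use the double KO arrays are therefore given as a description, with no test. Socs2, Cish, Igf1, Igfals and Bcl6 were picked for what they are known to do, also with earlier results known, and keep their test.

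The livers came from 9 female, euthyroid mice aged 7 to 9 weeks, on standard chow and a mixed 129SV/B6 background, with 1 Affymetrix array per mouse and 3 mice in each group. Double KO mice had a liver-specific deletion of SMRT together with NCoR. SMRT KO mice had a liver-specific deletion of SMRT. Control mice carried floxed alleles of both genes (SMRT and NCoR fl/fl). SMRT and NCoR are corepressors that nuclear receptors recruit to hold target genes down. What drove the deletion, and the NCoR allele of the SMRT KO mice, are not given in the sources used here, and no group lacked NCoR alone. The expression of the deleted genes was not analysed here, so the genotypes stand as labelled. All mice being female, the male-biased genes were read at their female level.

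Growth hormone from the pituitary binds its receptor on hepatocytes, the receptor-bound kinase JAK2 phosphorylates STAT5, and STAT5 enters the nucleus and binds a short palindromic DNA element. Its direct targets include Igf1 and Igfals, which supply the circulating growth factor and its carrier, and Socs2 and Cish, which damp the receptor signal in return. Males release the hormone in pulses and females more evenly, and this pattern sets the sex bias of many cytochromes P450 and major urinary proteins of the mouse liver. Bcl6, a repressor that growth hormone lowers, binds elements like those of STAT5 and itself recruits SMRT and NCoR.

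The promoters of the members differ in the element that STAT5 recognises. The motif searched was TTCNNNGAA, which reads the same on both strands, in windows of 300 bases that run from 250 bases before to 50 after each annotated start (RefSeq, GRCm38.p6). Of the 9 members 7 had windows, 11 in all. Among all 32851 windows of that length, 8.30% held the motif, 0.457% held it 2 or more times and 0.0335% held it 3 or more times. The windows below are shown because Cish and Bcl6 hold the motif repeatedly while those of Cyp2d9 and Mup21, which differed most between double KO and control livers, do not hold it. Capitals mark the motif.
Cish, chr9:107296409-107296708, + strand: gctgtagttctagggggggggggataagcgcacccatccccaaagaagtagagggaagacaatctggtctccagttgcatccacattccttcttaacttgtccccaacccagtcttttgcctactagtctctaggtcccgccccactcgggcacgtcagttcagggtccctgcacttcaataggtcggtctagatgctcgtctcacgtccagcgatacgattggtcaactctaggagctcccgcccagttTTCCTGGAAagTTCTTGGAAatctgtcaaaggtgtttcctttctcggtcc
Bcl6, chr16:23981234-23981533, - strand: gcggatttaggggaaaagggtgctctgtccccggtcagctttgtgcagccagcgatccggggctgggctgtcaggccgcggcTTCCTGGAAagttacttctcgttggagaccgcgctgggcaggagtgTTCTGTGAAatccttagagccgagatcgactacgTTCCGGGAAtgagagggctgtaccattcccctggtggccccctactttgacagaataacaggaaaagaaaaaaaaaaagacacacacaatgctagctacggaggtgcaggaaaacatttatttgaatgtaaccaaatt
Cyp2d9, chr15:82452127-82452426, + strand: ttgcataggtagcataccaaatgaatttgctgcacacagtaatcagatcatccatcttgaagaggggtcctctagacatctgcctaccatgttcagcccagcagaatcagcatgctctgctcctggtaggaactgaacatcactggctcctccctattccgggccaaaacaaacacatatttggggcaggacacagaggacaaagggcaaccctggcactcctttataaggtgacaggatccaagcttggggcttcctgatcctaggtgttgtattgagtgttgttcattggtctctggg
Mup21, chr4:62150792-62151091, - strand: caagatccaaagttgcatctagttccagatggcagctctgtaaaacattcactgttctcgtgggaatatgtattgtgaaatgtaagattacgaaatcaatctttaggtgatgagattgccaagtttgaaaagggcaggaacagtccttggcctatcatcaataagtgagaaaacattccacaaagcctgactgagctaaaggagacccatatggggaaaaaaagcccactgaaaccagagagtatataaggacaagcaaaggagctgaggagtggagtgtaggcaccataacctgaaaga
In Cish the 2 copies, TTCCTGGAA and TTCTTGGAA, begin at the annotated start and 11 bases after it. The Bcl6 window shown holds 3 copies, at positions -168, -122 and -88 from the start, and a window at another Bcl6 start holds 1. Of 3 Igfals windows 2 hold 1 copy each. The single windows of Igf1, Cyp2d9 and Mup21 and both windows of Susd4 hold 0. A match is a description of letters and not a binding site, and a window without one says nothing of STAT5 elsewhere in the gene.

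Cyp2d9, a male-biased cytochrome P450 of steroid and drug hydroxylation, stood lowest of all members relative to control. Its log2 expression was 5.78, 5.83 and 6.44 in double KO livers, against 8.16, 8.10 and 7.72 in SMRT KO livers and 8.16, 7.66 and 8.24 in control livers. The 3 double KO values lay well below the other 6, which overlapped each other. In the group means this was 6.02 ± 0.364 in double KO, 7.996 ± 0.243 in SMRT KO and 8.02 ± 0.312 in control livers (SD, n = 3 each), 4.003-fold lower in double KO than in control and 3.94-fold lower than in SMRT KO livers. In bulk liver, fewer cells that make a transcript and less of it per cell cannot be told apart.

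Mup21, a member of the major urinary protein family of lipocalins that carry pheromones, followed the same grouping. It measured 4.04, 3.94 and 3.24 in double KO livers, against 6.12, 5.33 and 5.13 in SMRT KO and 5.13, 5.78 and 5.59 in control livers. The double KO values again lay apart from the other 6, with log2 fold changes of -1.76 against control and -1.79 against SMRT KO (standard error 0.291 each). Its level is dim. The 1390 olfactory and vomeronasal receptor genes, which liver is not known to use, had array medians of 3.73 to 4.13, and 95% of them had a mean under 5.97. The double KO values of Mup21 lay near or below those medians and most of its other values lay below 5.97, with SMRT KO replicate 1 at 6.12 the exception, so its fold compares mostly dim values. Cyp2d9 also had double KO values under 5.97, at 5.78 and 5.83, so the low end of its fold is dim. In SMRT KO against control livers Mup21 had 0.027 and Cyp2d9 -0.023 (adjusted p = 0.997 for both by limma), with 95% intervals of -0.63 to 0.68 and -0.49 to 0.45.

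Susd4, a membrane protein with complement-control (sushi) domains and male-biased in mouse liver, differed by less. It measured 6.68, 6.48 and 6.44 in double KO livers, against 7.21, 7.38 and 7.24 in SMRT KO and 7.03, 6.69 and 7.13 in control livers. Double KO values were below all others, with control replicate 2 at 6.69 just above double KO replicate 1 at 6.68. The log2 fold changes were -0.42 against control and -0.75 against SMRT KO (standard error 0.117 each). SMRT KO livers lay above control livers without overlap (log2 fold change 0.33, adjusted p = 0.783 by limma), so the call was not made. Mup20, the male pheromone darcin, did not share the grouping: it measured 10.75, 10.25 and 10.54 in double KO, against 10.70, 9.90 and 10.37 in SMRT KO and 10.69, 10.92 and 11.04 in control livers, and all 3 groups overlapped. Its log2 fold changes were -0.37 in double KO against control, 0.19 in double KO against SMRT KO and -0.56 in SMRT KO against control (adjusted p = 0.775 for the last).

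**Figure D1:**
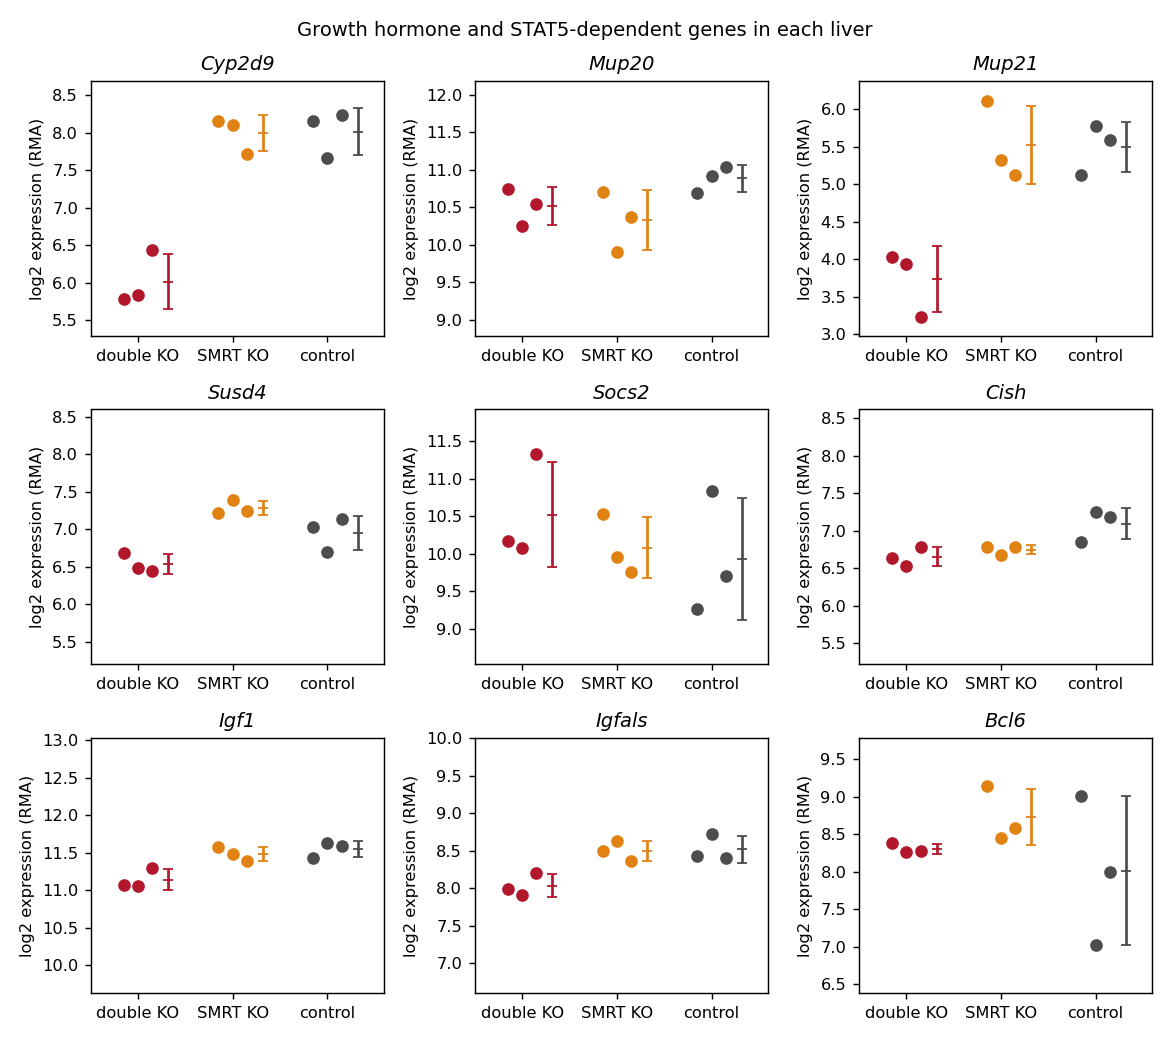
Log2 expression (RMA) of the 9 genes in each liver, with double KO left, SMRT KO in the middle and control right. Points are the 3 mice of a group, the bar beside them the mean ± SD (n = 3), and every panel spans the same height on the log2 scale. Cyp2d9 and Mup21 sit apart in double KO livers, at means of 6.02 and 3.74, while Socs2 and Bcl6 spread widely among control livers.

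Igf1 and Igfals were lowest in the double KO livers by small amounts, and neither passed the threshold. Igf1, the growth factor that the liver secretes into blood, measured 11.06, 11.06 and 11.30 in double KO, against 11.57, 11.49 and 11.39 in SMRT KO and 11.43, 11.63 and 11.59 in control livers. All 3 double KO values lay below the other 6. The log2 fold change was -0.41 against control (95% interval -0.61 to -0.21, adjusted p = 0.0890 by limma) and -0.35 against SMRT KO (adjusted p = 0.144). Igfals, the acid-labile subunit that keeps Igf1 in a long-lived serum complex, measured 7.99, 7.91 and 8.20 in double KO, against 8.49, 8.63 and 8.36 in SMRT KO and 8.42, 8.73 and 8.41 in control livers. It too was below the other 6 livers in every double KO liver, with log2 fold changes of -0.49 against control (95% interval -0.74 to -0.23, adjusted p = 0.120) and -0.46 against SMRT KO (adjusted p = 0.121). In SMRT KO against control livers Igf1 had -0.065 and Igfals -0.025 (adjusted p = 0.956 and 0.991), with intervals of -0.27 to 0.14 and -0.28 to 0.23.

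Cish and Socs2, feedback inhibitors that STAT5 induces, did not share a pattern. Cish measured 6.64, 6.53 and 6.78 in double KO, against 6.78, 6.67 and 6.78 in SMRT KO and 6.85, 7.25 and 7.18 in control livers. Both knockout groups lay below every control liver, with log2 fold changes of -0.44 for double KO (adjusted p = 0.137 by limma) and -0.35 for SMRT KO (adjusted p = 0.727). Double KO and SMRT KO livers overlapped (log2 fold change -0.096, 95% interval -0.34 to 0.15, adjusted p = 0.846). A second probe set of Cish, with a lower mean, gave -0.13 in double KO and 0.012 in SMRT KO against control. The double KO difference was smaller there and the SMRT KO difference did not appear, so both depend on the probe set. Socs2 measured 10.17, 10.07 and 11.33 in double KO, against 10.54, 9.96 and 9.76 in SMRT KO and 9.26, 10.84 and 9.71 in control livers. The groups overlapped fully, and the log2 fold change of 0.59 in double KO against control had an interval of -0.39 to 1.57 (adjusted p = 0.715). It was 0.19 without double KO replicate 3, 0.25 without control replicate 1 and 1.04 without control replicate 2. The Socs2 difference was 0.44 in double KO against SMRT KO (adjusted p = 0.810) and 0.15 in SMRT KO against control (adjusted p = 0.983). A second, dimmer Socs2 probe set gave 0.055 in double KO against control.

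Bcl6, the repressor that opposes STAT5 at shared sites, varied most among control livers. It measured 8.39, 8.27 and 8.28 in double KO, against 9.15, 8.45 and 8.59 in SMRT KO and 9.02, 7.03 and 7.9988 in control livers. The control values spanned both knockout groups but for SMRT KO replicate 1, with an SD of 0.994 in control and 0.0656 in double KO livers. Its log2 fold changes were 0.30 in double KO against control (adjusted p = 0.863 by limma), -0.42 in double KO against SMRT KO (adjusted p = 0.803) and 0.72 in SMRT KO against control (adjusted p = 0.893). Without control replicate 2 the first turned to -0.20 and the last became 0.23, and without control replicate 1 they became 0.80 and 1.22.

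Set against the whole array, 2 of the 9 members passed an adjusted p of 0.05 in double KO against control, both lower, where 0.843% of 22180 genes passed in either direction and 0.32% lower. Against SMRT KO livers 3 of 9 passed in double KO, all lower, where 1.19% passed in either direction and 0.437% lower. These were Cyp2d9 and Mup21 in both comparisons and Susd4 in the second, genes picked for those contrasts, so nothing is read from the counts. Of Socs2, Cish, Igf1, Igfals and Bcl6, 0 passed in either by limma. Among these 5, Cish, Igf1 and Igfals had an unadjusted p under 0.05 by limma in double KO against control, where 10.8% of all genes did, and Igf1 and Igfals in double KO against SMRT KO, where 10.5% did. These 5 too were picked with earlier results of these data known, so their counts are a description.

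The groups did not overlap in 6 of 9 members in double KO against control, all lower, where 15% of all genes did not overlap in either direction and 7.25% were lower. They did not overlap in 6 of 9 in double KO against SMRT KO, all lower, where 13.8% did not in either direction and 6.21% were lower. Cyp2d9, Mup21 and Susd4, picked for their low double KO values, were among the 6 in both, so nothing is read from these counts. The rest were Igf1 and Igfals in both, Cish in the first comparison and Bcl6 in the second. In SMRT KO against control livers 0 of 9 members passed by limma (0.00451% of all genes). There Susd4 was higher without overlap, as 3.8% of genes were, and Cish lower, as 4.36% were (8.16% in either direction). Cish, Mup20 and Susd4 had an unadjusted p under 0.05 in that comparison, as 6% of genes did. With 3 mice in each group, the smallest p that exact permutation of a single gene allows is 0.1. Both knockout groups were compared with the same 3 control livers, and both double KO comparisons use the same 3 double KO livers, so the comparisons are not independent.

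**Figure D2:**
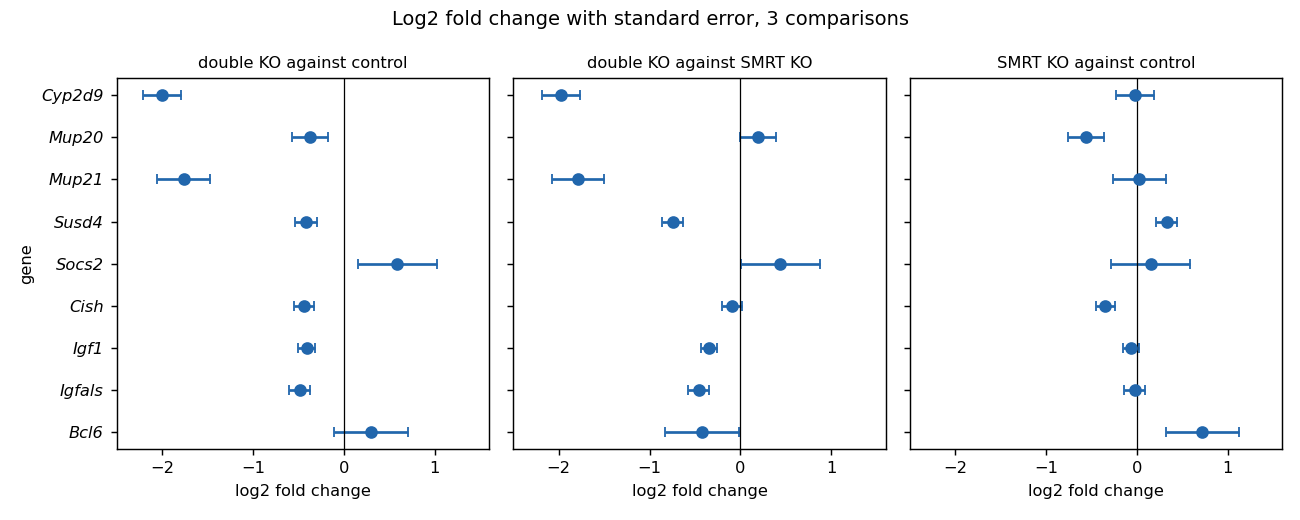
Log2 fold change of each gene (x axis) with its standard error from the model over 9 arrays, in double KO against control, double KO against SMRT KO and SMRT KO against control. Cyp2d9 at -2.00 and Mup21 at -1.76 stand apart from the other genes in the left panel, and Igf1, Igfals, Cish and Susd4 lie between -0.49 and -0.41 there.

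Between mice of the same group, Igf1 varied with Socs2 more closely than Cyp2d9, Mup21 or Susd4 did. After the mean of its own group was taken from each liver, the deviations of Igf1 and Socs2 had a Pearson r of 0.91 and a Spearman rho of 0.88 over the 9 mice, and the 3 mice of each group fell in the same order for both genes. The r was 0.90 without the 2 mice farthest out in Socs2, and 0.221% of all other genes had a higher r with Socs2. For Cish and Igfals the r with Socs2 was 0.79 and 0.83, but 0.60 and 0.47 without those 2 mice, so part of it rests on them. Cyp2d9 had an r of 0.16 with Socs2, Mup21 of 0.17 and Susd4 of -0.72. Without the 2 mice these became 0.36, 0.65 and -0.31, so they too rest on those mice, and Mup21 then lay above both Cish and Igfals. Without the 2 mice farthest out in Cyp2d9 instead, Cyp2d9 and Socs2 had 0.66. Cyp2d9 against Igf1 gave 0.49, and 0.76 without the 2 mice farthest out in Cyp2d9 or 0.44 without those farthest out in Igf1. Mup21 against Igf1 gave 0.14, and 0.46 or 0.52 without the 2 mice farthest out in Mup21 or in Igf1. Susd4 against Igf1 gave -0.44, and -0.54 or -0.33 on leaving out the 2 mice by Susd4 or by Igf1. Among themselves Cyp2d9 and Mup21 had an r of -0.32, and -0.52 or -0.37 when 2 mice were left out by Cyp2d9 or by Mup21. Cyp2d9 and Susd4 had 0.29, which turned to -0.27 or -0.30 when they were left out by Cyp2d9 or by Susd4. Mup21 and Susd4 had -0.11, and -0.19 or 0.049 when they were left out by Mup21 or by Susd4. Bcl6 had -0.67 with Cish, -0.56 with Igfals and -0.54 with Socs2, but 0.25, -0.14 and 0.39 without the 2 mice farthest out in Bcl6, so these negative values rest on those 2 livers. These values describe 9 deviations, of which the group means took up part, and they carry no test. All 9 arrays were normalized together.

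**Figure D3:**
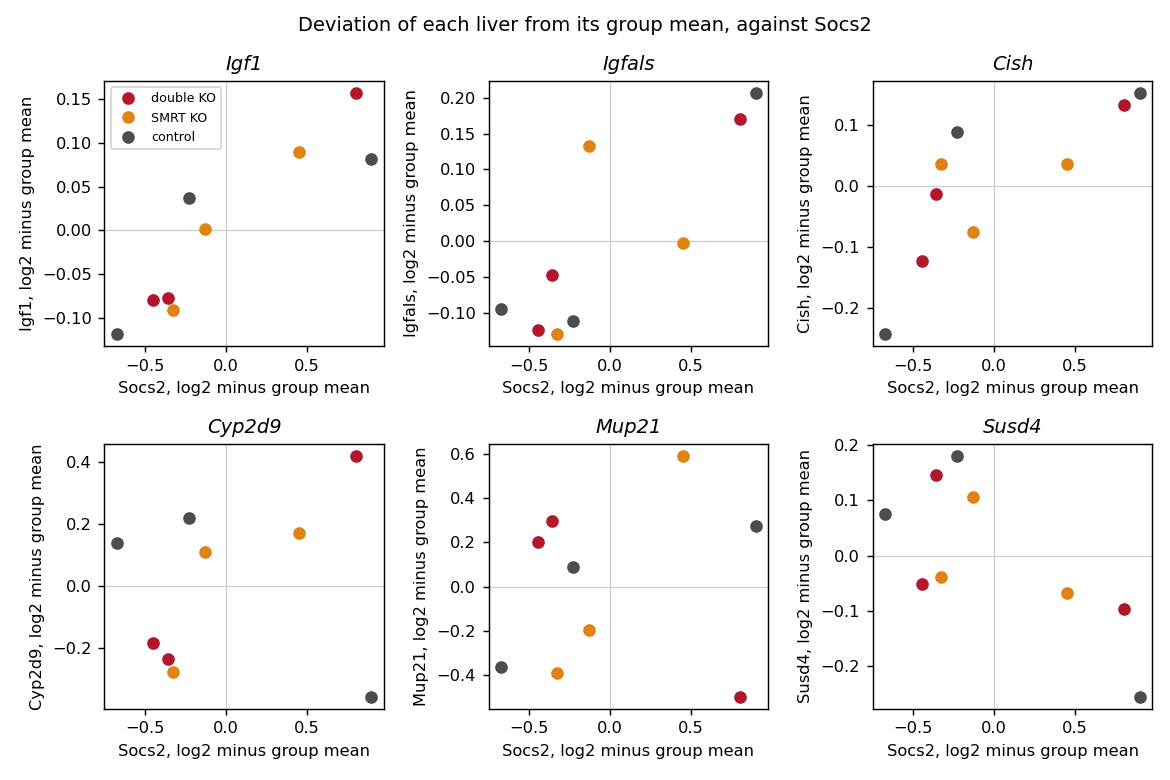
Deviation of each liver from its group mean (log2) for 6 genes on the y axes, against that of Socs2 on the x axis. Points are mice, coloured by group. Igf1 climbs with Socs2 (r of 0.91), while Cyp2d9 and Mup21 scatter (0.16 and 0.17) and Susd4 runs opposite (-0.72).

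When the group differences are left in, the order is another. Over the 9 livers the Pearson r of Cyp2d9 was 0.91 with Igf1, 0.86 with Igfals, 0.86 with Mup21 and 0.82 with Susd4, against -0.36 with Socs2. Igf1 ranked 69 and Igfals 167 among the 22179 other genes in likeness to Cyp2d9, and Socs2 ranked 17302. This r mostly holds the gap between double KO livers and the rest. The genes most like Cyp2d9 over the 9 livers were Errfi1 (r of 0.98), Tedc2 (0.98), Krt6b (0.97), Gys2 (0.97) and Abca8a (0.97). Those most like Mup21 were Lysmd2 (0.97), Apom (0.95), Resf1 (0.95), Adamts7 (0.95) and Iigp1 (0.95), and those most like Susd4 were Bnipl (0.96), Siglece (0.95), Rian (0.94), Saa4 (0.94) and Edrf1 (0.94).

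Of 20 measured genes of the growth hormone receptor and JAK-STAT pathway, 0 passed in any of the 3 comparisons, and their median log2 fold change was -0.030 in double KO against control, where that of all genes was 0.0036. Ghr, the growth hormone receptor, measured 10.21, 10.28 and 10.48 in double KO, against 10.56, 10.65 and 10.72 in SMRT KO and 10.61, 10.72 and 10.81 in control livers. Its 3 double KO values lay below the other 6, with log2 fold changes of -0.39 against control (adjusted p = 0.102 by limma) and -0.32 against SMRT KO (adjusted p = 0.173). Of the 20 genes, 1 was lower and 1 higher without overlap in double KO against control, where 15% of all genes did not overlap. Against SMRT KO livers 5 were lower and 2 higher without overlap, where 13.8% of all genes did not overlap. Jak2 had -0.036 in double KO against control (adjusted p = 0.931). Stat5b, the main STAT5 of liver, averaged 9.71 ± 0.0879 in double KO, 9.41 ± 0.224 in SMRT KO and 9.75 ± 0.0864 in control livers (SD, n = 3 each). SMRT KO livers were below all others in Stat5b and in its relative Stat5a, with log2 fold changes of -0.35 and -0.27 against control (adjusted p = 0.727 and 0.826). Stat5a had 0.49 in double KO against SMRT KO (adjusted p = 0.0859), and the phosphatase gene Ptpn6 had 0.20 in double KO against control (adjusted p = 0.331).

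Igf1 partners and other responsive genes gave no call either. Of 16 genes of the IGF axis (binding proteins, receptors and proteases) 0 passed in any comparison, with a median of 0.039 in double KO against control. The smallest p there was for Igfbp4, a binding protein that holds Igf1 inactive, at -0.19 (adjusted p = 0.232), followed by Stc2, an inhibitor of the protease that frees it, at 0.27 (adjusted p = 0.438). Igfbp3, the main serum carrier of Igf1, had -0.41 and Irs2, an adaptor of the insulin and IGF receptors, 0.30 in double KO against SMRT KO (adjusted p = 0.488 and 0.512). In SMRT KO against control Igfbp3 had 0.58 and Stc2 0.34 (adjusted p = 0.747 and 0.766). Of 12 other genes known to respond to growth hormone or STAT5, 0 passed in any comparison, with a median of 0.038 in double KO against control. Myc and Egfr had the smallest p in double KO against control. Egfr, the epidermal growth factor receptor that growth hormone maintains in mouse liver, measured 10.94, 10.58 and 11.23 in double KO, against 11.81, 11.62 and 11.42 in SMRT KO and 11.44, 11.92 and 11.52 in control livers, with every double KO liver below the rest. Its log2 fold change was -0.71 (adjusted p = 0.155), and that of the growth regulator Myc was 0.70 (adjusted p = 0.127). Onecut1, a transcription factor induced by growth hormone, had 0.39 (adjusted p = 0.626) and Hnf4a, a master regulator of hepatocytes, -0.16 (adjusted p = 0.521). The kinase gene Pim1 had 0.48 and Egfr -0.70 in double KO against SMRT KO (adjusted p = 0.122 and 0.145). In SMRT KO against control Ccnd1, a cyclin, had 0.36 and Hnf4a -0.13 (adjusted p = 0.864 and 0.906).

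Of 16 other male-biased genes 0 passed in double KO against control, 10 had a log2 fold change below 0 and the median was -0.096. Without overlap, 4 were lower and 3 higher, where 15% of all genes did not overlap in either direction and 7.25% were lower. Cyp2u1, a cytochrome P450, measured 7.01, 7.04 and 7.55 in double KO, against 8.30, 8.69 and 9.17 in SMRT KO and 8.06, 9.27 and 8.74 in control livers, a log2 fold change of -1.495 without overlap (adjusted p = 0.0707 by limma). Selenbp2 had -0.72 (adjusted p = 0.104). The organic anion carrier Slco1a1, singled out after its values were seen and also without overlap, measured 8.94, 6.83 and 10.39 in double KO, against 11.66, 11.55 and 10.78 in SMRT KO and 10.68, 11.04 and 11.46 in control livers, with an SD of 1.79 among double KO mice (log2 fold change -2.34, adjusted p = 0.237). The 3 that were higher were Cyp4a12a, Cyp4a12b and Elovl3, at 1.15, 0.88 and 1.47 (adjusted p = 0.392, 0.251 and 0.376), the first 2 being cytochromes P450 that hydroxylate fatty acids. Gstp1, a glutathione transferase, was the other that was lower, at -0.26 (adjusted p = 0.528). Cyp4a12a lay under the 5.97 that bounds 95% of receptor genes in every liver but double KO replicate 3, at 7.13. Moxd1 and Ugt2b38, also counted in this list, lay under it in every liver. Elovl3, which elongates fatty acids, was the 1 of 16 called in double KO against SMRT KO livers, where 1.19% of all genes passed. It measured 9.56, 9.25 and 10.75 in double KO, against 7.98, 6.96 and 5.94 in SMRT KO and 7.55, 8.83 and 8.77 in control livers. Its log2 fold change was -1.42 in SMRT KO against control (adjusted p = 0.826 by limma). In double KO against SMRT KO it was 2.89 (adjusted p = 0.0473, range 0.0280 to 0.158 over 16 alternatives). The call was lost without each double KO mouse (0.122, 0.104 and 0.158), without SMRT KO replicates 2 and 3 (0.119 and 0.114) and without control replicates 2 and 3 (0.0730 and 0.0799), with only these 2 groups in the fit (0.120) and with the replicate block (0.116). In SMRT KO against control livers 0 of 16 passed, the smallest p being for Cyp7b1, an oxysterol hydroxylase, at -0.66 (adjusted p = 0.801), and for C6, a complement component, at 0.45 (adjusted p = 0.821).

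Female-biased genes held the only calls in double KO against control livers among these lists. Of 19 measured genes 3 rose, 0 fell and 16 did not pass, where 0.843% of all genes passed in either direction. Like the other lists, this one was chosen with earlier results of these data known, so nothing is read from its counts. The list had a median log2 fold change of 0.30. Of the 19, 12 lay above 0 and 7 below. Without overlap, 8 were higher and 2 lower, where 15% of all genes did not overlap in either direction and 7.25% were lower. The 2 lower were Cyp2b13, a cytochrome P450, at -1.46 and Tox, a nuclear factor, at -0.24 (adjusted p = 0.250 and 0.417). Sult1e1, the estrogen sulfotransferase, rose to 7.33, 8.70 and 8.84 in double KO, against 4.40, 4.20 and 3.96 in SMRT KO and 4.66, 4.67 and 5.56 in control livers, a log2 fold change of 3.32 against control (adjusted p = 0.00540 by limma) and 4.10 against SMRT KO (adjusted p = 0.00204). Its SMRT KO and control values lay under the 5.97 that bounds 95% of receptor genes. Sult2a1, a sulfotransferase of steroids and bile acids, rose 2.83-fold against control (adjusted p = 0.00835) and by 1.04 against SMRT KO (adjusted p = 0.0357). The first call was lost without double KO replicate 2 (0.0565). The second was lost without each double KO mouse, each SMRT KO mouse or control replicate 3, with values up to 0.146, and with the replicate block (0.0583). Cd36, the fatty acid transporter, rose by 1.31 against control (adjusted p = 0.00309) and had 0.66 against SMRT KO (adjusted p = 0.0539). In double KO against SMRT KO livers 2 of 19 passed, where 1.19% of all genes did, and in SMRT KO against control 0 of 19. There Hao2, a peroxisomal hydroxy acid oxidase, and A1bg, a plasma glycoprotein, had the smallest p, both higher without overlap (0.92 and 1.82, both at an adjusted p of 0.326).

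**Figure D4:**
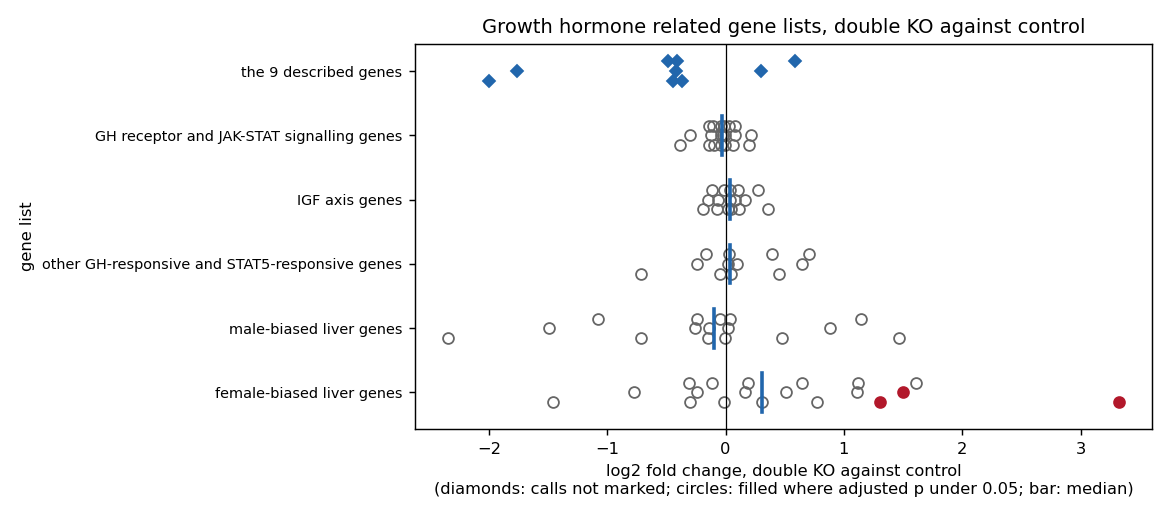
Log2 fold change in double KO against control livers for the 9 described genes (diamonds, with no call marked) and for each gene of 5 lists (circles, filled where the adjusted p was under 0.05, with the list's median as a bar). The receptor and IGF lists crowd around 0, male-biased genes scatter to both sides, and the 3 filled circles are the female-biased Cd36, Sult2a1 and Sult1e1.

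Close relatives of Cyp2d9 and Mup21 differed in size and direction of change. The 8 other Cyp2d genes were chosen after their values were seen, so they are given as a description with no test. Cyp2d40 measured 7.15, 7.32 and 7.13 in double KO livers, against 7.80, 8.09 and 7.86 in SMRT KO and 7.87, 7.81 and 7.93 in control livers. Its log2 fold change was -0.67 in double KO against control and -0.72 against SMRT KO. Cyp2d10, Cyp2d13 and Cyp2d26 had -0.48, -1.01 and -0.12 in double KO against control, without overlap. Cyp2d11, Cyp2d12, Cyp2d22 and Cyp2d34 overlapped there, at -0.22, -0.050, -0.038 and 0.089. Of these, Cyp2d11, Cyp2d12 and Cyp2d34 lay under the 5.97 that bounds 95% of receptor genes in every liver. Their differences therefore compare dim values. Of 4 other Mup genes with their own probe set, 1 was called in double KO against SMRT KO, where 1.19% of all genes passed. This was the pseudogene Mup-ps12, at 10.90, 11.00 and 10.77 in double KO against 8.43, 7.14 and 8.25 in SMRT KO livers (log2 fold change 2.95, adjusted p = 0.00204 by limma). Its control values, 9.99, 10.19 and 10.14, lay between, and its log2 fold change was -2.16 in SMRT KO against control (adjusted p = 0.0924) and 0.79 in double KO against control (adjusted p = 0.320). Mup5 had -0.32 in SMRT KO against control (adjusted p = 0.864). Mup3 had -0.61 in double KO against control livers (adjusted p = 0.112). Cyp2d and Mup genes are near copies of each other, so their probe sets may share signal, and 2 probe sets assigned to several Mup genes were not used.

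The 7 measured hepatocyte markers, among them Alb and Apoa1, averaged 13.31 to 13.35 per mouse in double KO, 13.34 to 13.44 in SMRT KO and 13.34 to 13.42 in control livers, with 5 of 7 below 0 in double KO against control and 0 called. The 8 pericentral markers averaged 10.36 to 10.40 in double KO, 10.36 to 10.63 in SMRT KO and 10.56 to 10.62 in control livers, and the 5 measured periportal markers 10.69 to 10.77 in double KO, 10.78 to 11.16 in SMRT KO and 10.96 to 11.00 in control livers. In double KO against control 7 of 8 pericentral markers lay below 0, 3 of them without overlap, with a lowest log2 fold change of -0.69, and 4 of 5 periportal markers lay below 0, 2 of them without overlap. The test called 1 gene of each list, both lower, Cyp1a2 (-0.41) and Pck1 (-0.68). In that comparison 0.32% of all genes were called lower and 7.25% were lower without overlap. All 9 Kupffer cell markers lay above 0 in SMRT KO against control, with per-mouse means of 8.56 to 8.79 in SMRT KO and 8.35 to 8.55 in control livers, and 4 of 9 in double KO against control. Of 6 stellate cell markers 4 lay below 0 in double KO against control, 2 of them without overlap, and 1, Lrat, was called lower (-1.80). The part of these shifts in the values above was not tested. Pancreatic acinar and adipocyte markers averaged at most 6.01 in any liver, and erythroid markers were not analysed here.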

How the data were processed

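Liver RNA of 9 mice, 200 ng each, was measured on 1 array per mouse. The deposited values are log2 expression per probe set, made by the authors with RMA per the submitters' processing notes (a method that corrects background, quantile-normalizes arrays and summarises probes per set), with version and build not given in the sources used here. A shift shared by most genes would not show. Arrays carry no read depth, and their number limits the precision. Of 41345 probe sets, 23521 had 1 gene symbol, 1814 several and 16010 none listed. The probe set with the highest mean was kept per gene, leaving 22180 genes with no filter on level.

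The test was two-sided, by limma 3.58.1 (R 4.3.3), with 1 linear model over all 9 arrays with no block, with 6 residual and 3.36 prior degrees of freedom. Each comparison had its own Benjamini-Hochberg adjustment across every gene, and a gene was called below 0.05. The steps were tested on simulated data. Every number in the text is a log2 value unless named otherwise. The titles number the mice 1 to 3 in each group.

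The members and lists were chosen with earlier results of these data known. All 9 members are named. Of each list, called genes are named where 5 or fewer were called, otherwise the 4 with the smallest p, or the 2 with the smallest p where none was called, and the 5 genes most like Cyp2d9, Mup21 and Susd4 are those with the highest Pearson r. Nothing says whether mice shared a litter or cage. Alternatives were cyclic loess, a filter on dim genes, 2 groups per fit, the replicate block, a trended robust eBayes, array weights, the mean of a gene's probe sets and leaving out each mouse.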

Additional observations from a re-analysis of the deposited data

How the results depend on the processing

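Counts of called genes moved most. Over all genes the count in SMRT KO against control was 1, and 2 without the dimmest genes, 0 with only the 2 groups in the fit, 2 with the replicate block and 0 to 23 with a mouse left out. In double KO against control it was 187, and 109 with only the 2 groups, 285 with array weights and 61 to 179 with a mouse left out. In double KO against SMRT KO it was 263, and 124 with only the 2 groups and 101 to 234 with a mouse left out. Called members in double KO against control numbered 2, and 1 without the dimmest genes, where Mup21 was not in the fit, 1 with only the 2 groups, 3 with array weights and 1 to 2 with a mouse left out. In double KO against SMRT KO they numbered 3, and 1 to 3 with a mouse left out. In the main fit the called members were Cyp2d9 and Mup21, with Susd4 in the second comparison. All were picked for their low double KO values, so nothing is read from how these counts held.

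Of the direct STAT5 targets, Igf1 passed in double KO against control with array weights (adjusted p = 0.0361, range 0.0361 to 0.314 over 16 alternatives) and Cish without control replicate 1 (0.0496, range 0.0496 to 0.393), and no other alternative brought a call. Called receptor and JAK-STAT genes in double KO against control numbered 1 with array weights. Called male-biased genes in double KO against control, 0 in the report, numbered 1 without the dimmest genes, 1 with the replicate block, 2 with array weights and 0 to 1 with a mouse left out. In double KO against SMRT KO, 1 in the report, they numbered 2 with cyclic loess, without the dimmest genes, with trended robust eBayes and with array weights, 0 with only the 2 groups and 0 to 2 with a mouse left out. Called female-biased genes in double KO against SMRT KO numbered 1 to 3 with a mouse left out, and 0 to 1 in SMRT KO against control. Other Mup genes called numbered 0 to 1 with a mouse left out in SMRT KO against control and in double KO against control, and in the second comparison 1 with only the 2 groups in the fit.

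Signs turned for 6 values, none of them called. With a mouse left out, SMRT KO against control ran from -0.20 to 0.12 for Cyp2d9, -0.27 to 0.22 for Mup21, -0.19 to 0.60 for Socs2 and -0.091 to 0.078 for Igfals, which was 0.014 with array weights. Bcl6 ran from -0.20 to 0.80 in double KO against control and Mup20 from -0.022 to 0.38 in double KO against SMRT KO. The cause was not tested. The replicate block left the called members, picked for their low double KO values, at 2 and 3 in the double KO comparisons. It gave 152 called genes in double KO against control and 195 in double KO against SMRT KO. It changed the calls of Elovl3 and Sult2a1 given in the report. Over all genes, deviations of same-numbered mice from their group means correlated at -0.085 to 0.117, so the numbers were not taken as pairs.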
